A study of Mus musculus with 12 samples.

Results

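The genotype by differentiation interaction asks, gene by gene, whether the change from mouse embryonic stem cells (mESC) to anterior neural progenitors (AntNPC) had the same size in a line labelled EED-/- as in the WT line. It is the AntNPC minus mESC difference in the line labelled EED-/- minus the same difference in WT, on the log2(FPKM + 1) scale, where FPKM is a fragment count corrected for the length of the transcript and the size of the library. A value above 0 means that a gene rose more, or fell less, in the line labelled EED-/-, and a value below 0 the reverse. It was measured with all 12 libraries of the series, 2 of WT mESC, 2 of mESC labelled EED-/-, 4 of WT AntNPC and 4 of AntNPC labelled EED-/-. It was computed for the 13678 of 21253 genes that had at least 1 FPKM in 2 or more libraries.

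The WT cells are the E14 line and the EED-/- cells an existing knockout line, whose allele and parental line the sources used here do not give. Each genotype is 1 line, so other differences between the lines cannot be told apart from the genotype. The mESC were kept undifferentiated on gelatin with 15% serum and LIF. Both AntNPC groups were seeded at 10000 cells per cm2 and cultured for 5 days without serum in N2B27 medium. The medium held 10 ng/ml bFGF until day 3 and, from day 2 on, 5 uM of Xav939, an inhibitor of the WNT pathway. Nothing in the labels says whether replicates were separate cultures, and the p-values speak only of the spread among these libraries, which may be technical.

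EED is a core subunit of Polycomb repressive complex PRC2, which methylates lysine 27 of histone H3 at developmental genes that are silent in a cell. mESC without EED can be kept in culture, and PRC2 is known to be needed for orderly gene control once such cells leave pluripotency. Its usual targets in mESC are CpG-rich promoters of transcription factors and signalling genes, while promoters poor in CpG, as at many keratin and chemokine genes, are less typical targets.

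Because CpG content is the sequence feature most often tied to PRC2, the 250 bases upstream of the start site are shown for 6 genes that carry the results below, on the gene's own strand, 5′ to 3′, from RefSeq on GRCm38.p6, with every CG in capitals. Wnt1 (chr15:98789607-98789856, plus strand) and Axin2 (chr11:108920099-108920348, plus strand) hold 23 and 24 CG. Hoxb8 (chr11:96281655-96281904, plus strand) holds 12 and Epcam (chr17:87635729-87635978, plus strand) 8. Krt14 (chr11:100206031-100206280, minus strand) holds 5 and Ccl17 (chr8:94810203-94810452, plus strand) 3. Over the 300 bases from 250 before to 50 after the start, the ratio of observed to expected CG was 0.70 at Wnt1, 0.89 at Axin2, 0.97 at Hoxb8, 0.45 at Epcam, 0.29 at Krt14 and 0.17 at Ccl17, against a median of 0.76 over all promoters matched. A promoter was matched for 78.7% of the genes tested, under the 80% set for such a check, so a comparison of promoter content between classes of genes is void and is not given.
Wnt1: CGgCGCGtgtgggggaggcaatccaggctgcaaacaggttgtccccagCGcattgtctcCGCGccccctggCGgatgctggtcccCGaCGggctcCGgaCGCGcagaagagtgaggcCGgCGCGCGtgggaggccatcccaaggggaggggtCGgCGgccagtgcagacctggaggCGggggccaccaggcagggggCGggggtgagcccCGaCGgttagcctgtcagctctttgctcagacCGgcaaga
Axin2: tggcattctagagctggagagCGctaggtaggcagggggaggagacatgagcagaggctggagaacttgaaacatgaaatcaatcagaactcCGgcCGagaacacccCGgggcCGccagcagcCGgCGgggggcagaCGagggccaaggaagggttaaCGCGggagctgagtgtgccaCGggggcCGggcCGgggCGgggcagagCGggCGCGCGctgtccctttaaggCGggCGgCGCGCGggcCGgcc
Hoxb8: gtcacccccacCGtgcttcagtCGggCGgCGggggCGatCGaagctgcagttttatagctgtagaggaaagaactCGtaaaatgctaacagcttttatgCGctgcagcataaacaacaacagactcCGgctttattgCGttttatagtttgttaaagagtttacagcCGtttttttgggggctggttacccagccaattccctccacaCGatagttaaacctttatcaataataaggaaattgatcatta
Epcam: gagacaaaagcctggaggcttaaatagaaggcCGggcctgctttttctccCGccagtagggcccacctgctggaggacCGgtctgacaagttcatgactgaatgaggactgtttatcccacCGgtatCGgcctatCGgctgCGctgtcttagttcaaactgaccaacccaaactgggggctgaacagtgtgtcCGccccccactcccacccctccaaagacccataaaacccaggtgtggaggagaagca
Krt14: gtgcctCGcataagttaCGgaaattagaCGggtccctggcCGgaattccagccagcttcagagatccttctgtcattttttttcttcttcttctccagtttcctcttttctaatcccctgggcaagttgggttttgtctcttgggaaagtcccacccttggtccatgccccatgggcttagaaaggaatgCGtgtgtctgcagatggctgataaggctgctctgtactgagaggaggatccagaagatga
Ccl17: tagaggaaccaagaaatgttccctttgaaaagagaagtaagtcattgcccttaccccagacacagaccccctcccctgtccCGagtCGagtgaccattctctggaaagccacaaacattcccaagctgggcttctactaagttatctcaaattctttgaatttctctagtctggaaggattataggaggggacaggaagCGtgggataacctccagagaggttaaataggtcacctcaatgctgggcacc

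The libraries and their labels were checked first. Eed itself was at 66.2 and 163 FPKM in WT mESC, with 644 and 376 in mESC labelled EED-/-. AntNPC levels of Eed were 42, 54.7, 63.4 and 61.7 FPKM in WT AntNPC, against 182, 171, 202 and 186 in AntNPC labelled EED-/-. Eed was thus higher in every library labelled EED-/- than in WT of the same cell type, which goes against the label as far as a summed transcript level can show, and the allele is not given. Every direction below is therefore that of the libraries so labelled. FPKM summed to between 453550 and 864235 in a library, a range that was widest between the 2 WT mESC libraries. Ribosomal protein genes took 11.4% to 35.0% of it. The median SD of a gene on the log2 scale was 0.47 for WT mESC and 0.37 for mESC labelled EED-/-, against 0.13 in each AntNPC group, and the AntNPC library with no number in its title stood apart from the other 3 in both genotypes. Genes on chromosomes 3, 6 and 8 were on median higher in the line labelled EED-/- in both cell types, by 0.62, 0.78 and 0.66 in mESC and 0.51, 0.57 and 0.40 in AntNPC. Their median interactions of -0.08, -0.18 and -0.21 were near the -0.19 of all 9471 genes of mean FPKM above 5.

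The labelled cell types carried their markers. Summed over 7 mESC markers, expression was 2526 to 8988 FPKM in WT mESC, 2154 to 6651 in mESC labelled EED-/-, 33.0 to 66.1 in WT AntNPC, and then 237 to 310 in the AntNPC libraries labelled EED-/-. The 9 AntNPC markers summed to 244 to 432 FPKM in WT AntNPC but 92.7 to 119 in AntNPC labelled EED-/-, and to at most 40.4 in mESC. By these sums AntNPC labelled EED-/- thus held more mESC marker RNA and less AntNPC marker RNA than WT AntNPC. Otx2 was the highest AntNPC marker in WT AntNPC, at 134 to 208 FPKM, and was at 17.6 to 37.6 in AntNPC labelled EED-/-. In the latter group Nes, at 19.3 to 23.2 FPKM, exceeded it in replicates 3 and 4. Otx2, Lhx5, Fezf1 and Hesx1 were lower in AntNPC labelled EED-/- without overlap, while Six3, Nes and Sox1 overlapped between the groups. Pax6 and Lhx2, the other AntNPC markers, are not given singly here. Much of the difference between the sums was that of Otx2. The part of remaining mESC in the results was not tested, and in such bulk samples fewer cells of a type and less RNA per cell cannot be told apart.

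The interaction passed an adjusted p of 0.05 (limma, Benjamini-Hochberg over all 13678 genes) at 2086 genes, 15.3% of those tested. It was above 0 at 545 of them (3.98%) and below 0 at 1541 (11.3%). An unadjusted p under 0.05 was reached by 3829 genes. The smallest value called was 0.58 above 0 and -0.44 below it, and 442 and 1172 genes passed with at least a 2-fold difference. The whole distribution was shifted: the median over all genes was -0.20, from a median change of 0.17 in WT and -0.01 in the line labelled EED-/-. After quantile normalization, which moved that median to 0.01, 733 genes were higher and 841 lower, and after scaling to a common median (0.00) 756 and 1104. The share of calls above 0 was therefore 26.1% as deposited and 46.6% and 40.6% after these scalings, so that the excess of lower calls depends on the scale. Calls that passed in the same direction under all 3 scales numbered 477 higher (3.49%) and 758 lower (5.54%).

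The calls also rest on the spread shared by all groups, to which the mESC groups add only 2 libraries each. With limma's library weights, which count the more variable libraries less, 12 of the 545 and 60 of the 1541 calls passed and no other gene did. For every choice of 1 library from each group the sign was the same in 542 of the 545 and 1536 of the 1541, against 5.91% and 17% of all genes. These signs come from the same values as the calls and are no independent support for them. Calls that passed without each of the 12 libraries in turn numbered 329 and 976, and 318 and 655 of these also passed under all 3 scales. Every gene given with its library values below passed under all 3 scales and without each library in turn unless stated otherwise, and those that passed with library weights are named.

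**Figure D1:**
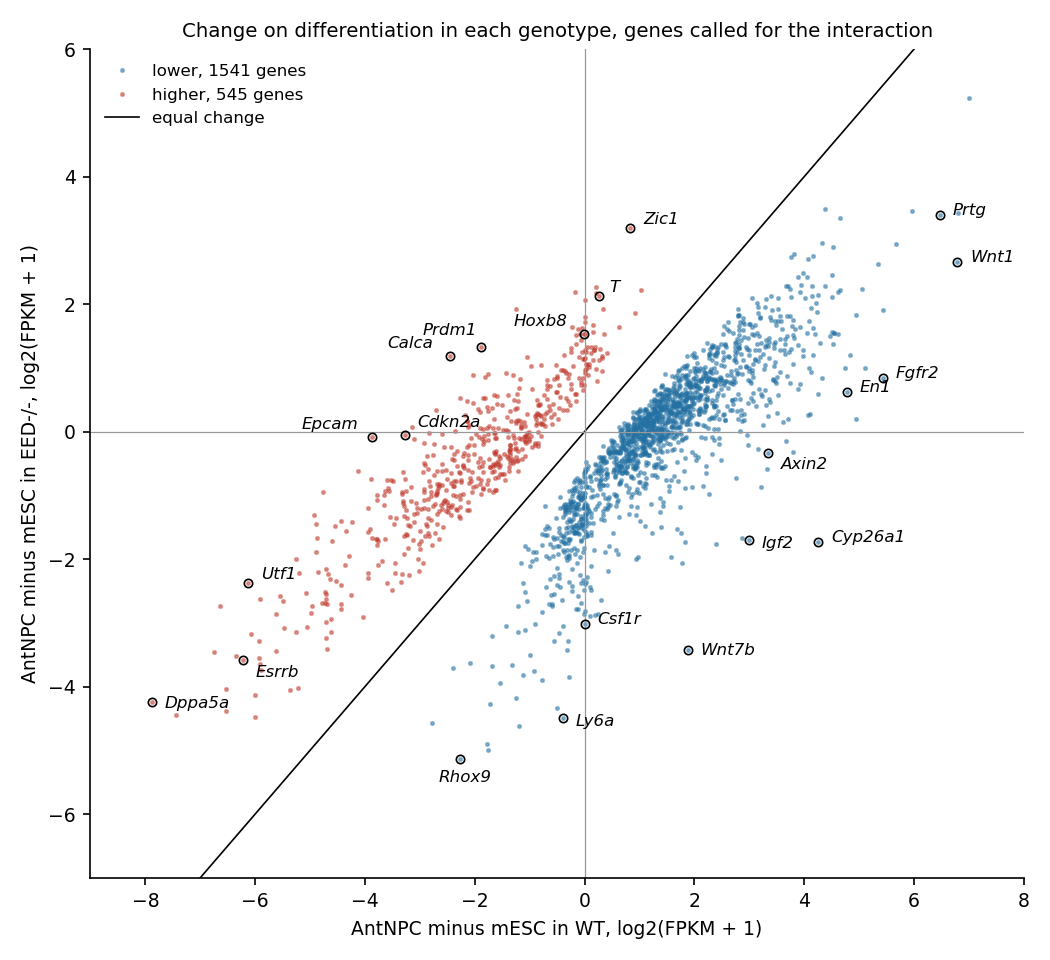
Change from mESC to AntNPC in WT (horizontal axis) and in the line labelled EED-/- (vertical axis), both in log2(FPKM + 1), 1 point for each of the 2086 genes called, with some genes of the text named. The 545 genes with a higher interaction lie above the diagonal of equal change and the 1541 with a lower one below it.

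Sorted by what happened in each line, the 545 higher genes were mostly genes that WT lost. In WT 30.1% of all genes rose and 18.1% fell on differentiation, and in the line labelled EED-/- 14.4% rose and 16.7% fell. Of the 545, 232 fell in both lines, with median changes of -3.04 in WT and -1.32 in the line labelled EED-/-. A further 212 fell in WT with no change that passed in the line labelled EED-/-, where the median was -0.09. Another 79 rose in the line labelled EED-/- alone and 13 fell in WT while they rose there. Of the rest, 3 rose in both lines and 6 passed in neither.

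The 1541 lower genes were mostly genes that WT gained. Of these, 713 rose in WT with no change that passed in the line labelled EED-/- (medians 1.33 and 0.08) and 398 rose in both, by a median of 2.57 in WT and 1.03 in the line labelled EED-/-. A second pattern was a fall found in the line labelled EED-/- alone, at 287 genes, where the median changes were -0.06 and -1.30. In 69 genes WT rose and the line labelled EED-/- fell, 61 fell in both and 13 passed in neither. Passing in 1 line and not in the other is here joined to the interaction itself, which is the test of that difference. These classes were unequal in their hold on scale: 299 of the 713 and 153 of the 287 passed under all 3 scales, against 195 of the 212 and 59 of the 69.

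**Figure D2:**
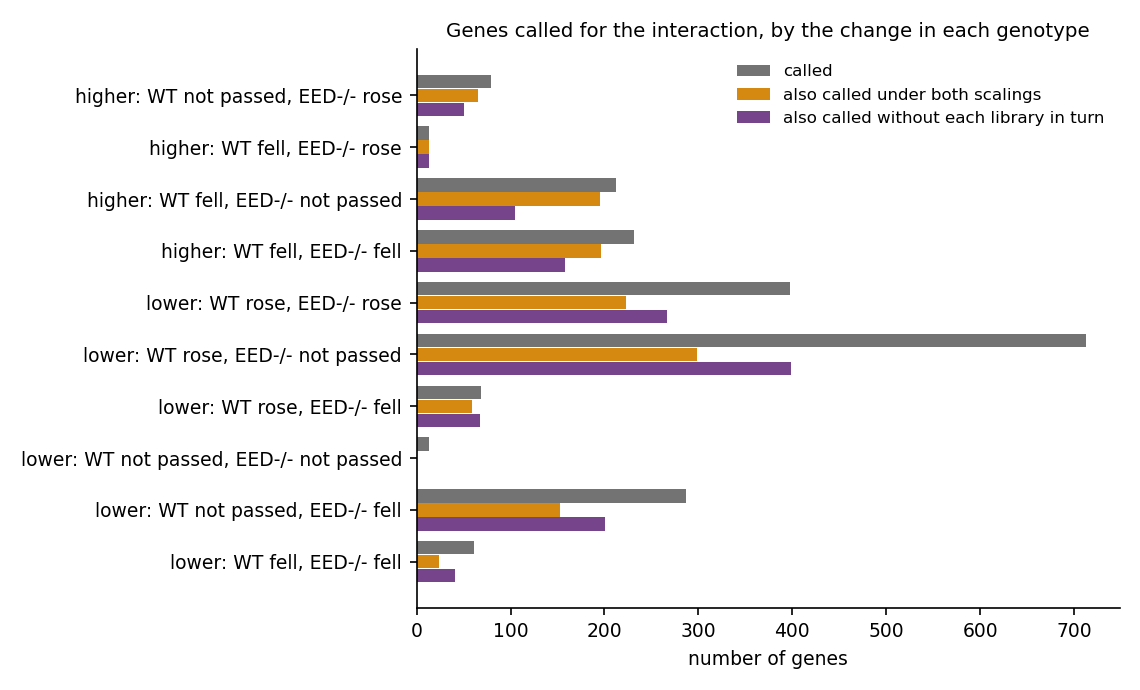
Number of called genes in each class of change (rose, fell or not passed in WT and in the line labelled EED-/-), with those that also passed under both other scales and in all 12 fits that leave out 1 library. The class that rose in WT and did not pass in the line labelled EED-/- holds 713 genes, of which 299 passed under both other scales.

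The same 2086 genes can be read by genotype, with 20% of all genes higher and 2.73% lower in mESC labelled EED-/- than in WT mESC, and 18.3% higher and 7.75% lower in AntNPC. Of the 1541 lower genes, 719 were already higher in mESC labelled EED-/- and did not differ past the threshold in AntNPC. Another 402 were lower in AntNPC alone, 143 were higher in mESC and lower in AntNPC, and 199 were higher in both. Of the 545 higher genes, 291 were higher in AntNPC labelled EED-/- alone, 137 were lower in mESC alone and 47 went from lower in mESC to higher in AntNPC. This reading moves with the scale, since 291 of the 719 and 228 of the 402 passed under all 3 scales, against 248 of the 291 higher in AntNPC alone.

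Several pluripotency genes fell less in the line labelled EED-/-. Of 22 tested genes of naive pluripotency, the state of mESC before priming, 12 had a higher interaction and 1 a lower one, with a median of 1.83 against -0.20 over all genes. Each list count here and below is to be read beside the 3.98% higher and 11.3% lower over all genes. Of 10 core pluripotency genes 3 were higher and none lower, while 3 and 1 had an unadjusted p under 0.05. The median change of the naive list was -4.72 in WT and -3.49 in the line labelled EED-/-, whereas that of the core list was -1.13 and -1.35. The core list's median interaction was 0.15, and -0.06 after quantile normalization. Its lower calls numbered 4 without replicate 2 of WT mESC and 2 without replicate 1 of mESC labelled EED-/-. With library weights 0 of the 22 and 0 of the 10 passed. The higher count of the naive list was 9 without any 1 of the numbered WT AntNPC libraries. It was 6 with the replicate number of the titles as a block.

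Esrrb, an orphan nuclear receptor of the naive network, was at 117 and 145 FPKM in WT mESC, with 93.1 and 129 in mESC labelled EED-/-. AntNPC levels of Esrrb were 0.403, 0.797, 0.947 and 0.915 FPKM in WT AntNPC, against 8.99, 7.01, 8.8 and 8.16 in AntNPC labelled EED-/-. The lines overlapped in mESC, and each AntNPC library labelled EED-/- was above each WT one. The interaction of Esrrb was 2.64 ± 0.28 (SE; adjusted p = 0.000215). Nanog, a homeobox factor of the core network, was at 114 and 267 FPKM in WT mESC, with 236 and 235 in mESC labelled EED-/-. In AntNPC, Nanog was at 8.9, 3.7, 3.22 and 3.9 FPKM in WT AntNPC, against 37.7, 32, 31.4 and 27.4 in AntNPC labelled EED-/-, again without overlap, and its interaction was 2.13 ± 0.52 (SE; adjusted p = 0.0179). Pou5f1, which encodes OCT4, was at 648 and 1254 FPKM in WT mESC, with 673 and 355 in mESC labelled EED-/-, and its AntNPC levels were 47.3, 13.6, 13.3 and 15 FPKM in WT AntNPC, against 102, 66.7, 76.4 and 65.4 in AntNPC labelled EED-/-. Its interaction was 2.83 ± 0.69 (SE; adjusted p = 0.0185). WT AntNPC replicate 1, at 47.3, stood above its 3 group-mates and below every AntNPC library labelled EED-/-.

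Utf1, a chromatin-bound factor of undifferentiated cells, showed the largest interaction among the core genes that passed, 3.75 ± 0.74 (SE; adjusted p = 0.00663). It was at 102 and 527 FPKM in WT mESC, with 317 and 132 in mESC labelled EED-/-. AntNPC levels of Utf1 were 2.47, 1.99, 2.33 and 2.66 FPKM in WT AntNPC, against 50.5, 31.4, 38.8 and 36.1 in AntNPC labelled EED-/-. Dppa5a, an RNA-binding protein abundant in mESC, was at 1469 and 6767 FPKM in WT mESC, with 5293 and 1017 in mESC labelled EED-/-, a wide spread within each line. AntNPC libraries held it at 7.53, 12.3, 15.1 and 16.7 FPKM in WT AntNPC, against 127, 116, 133 and 115 in AntNPC labelled EED-/-, with an interaction of 3.64 ± 0.92 (SE; adjusted p = 0.0218). The calls of Nanog, Pou5f1 and Dppa5a were lost without replicate 2 of mESC labelled EED-/-, and the core list then had 1 higher gene in place of 3.

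Other members behaved alike. Spp1, a secreted phosphoprotein, was at 0.555 to 0.988 FPKM in WT AntNPC, against 10 to 15.6 in AntNPC labelled EED-/- and had an interaction of 2.27 ± 0.28 (SE; adjusted p = 0.000472). Tbx3, a T-box factor of the naive state, was at 0.145 to 0.211 FPKM in WT AntNPC, against 2.95 to 4.25 in AntNPC labelled EED-/-, with 1.48 ± 0.28 (SE; adjusted p = 0.00501). Fgf4, the growth factor through which mESC drive each other out of the naive state, was at 0.178 to 0.472 FPKM in WT AntNPC, against 2.58 to 7.89 in AntNPC labelled EED-/-, with 2.38 ± 0.45 (SE; adjusted p = 0.00519). In all of these the AntNPC groups did not overlap, while the fall from mESC passed in both lines. Such genes were picked among those called, so the lack of overlap is no further evidence. Dnmt3l, the cofactor of de novo DNA methyltransferases, was at 139 and 268 FPKM in WT mESC, with 536 and 205 in mESC labelled EED-/- and at 1.3 to 1.43 FPKM in WT AntNPC, against 23.2 to 36.8 in AntNPC labelled EED-/-, with 2.83 ± 0.50 (SE; adjusted p = 0.00361). Jam2, a junctional adhesion molecule, went the other way. It ended at 3.39 to 8.37 FPKM in WT AntNPC, against 1.18 to 1.9 in AntNPC labelled EED-/-, with an interaction of -1.79 ± 0.49 (SE; adjusted p = 0.031) that was lost after scaling to a common median (adjusted p = 0.0944), held after quantile normalization and passed in 4 of the 12 fits without 1 library.

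Trap1a, an X-linked gene known as a tumour rejection antigen, and Dpys, which encodes dihydropyrimidinase, passed with library weights as well. Trap1a was at 98 and 210 FPKM in WT mESC, with 206 and 106 in mESC labelled EED-/-. AntNPC levels of Trap1a were 3.41, 4.38, 5 and 4.57 FPKM in WT AntNPC, against 85.2, 70.1, 78.1 and 72.3 in AntNPC labelled EED-/-, and its interaction was 3.82 ± 0.43 (SE; adjusted p = 0.000292). It fell by 4.77 on the log2 scale in WT and by 0.95 in the line labelled EED-/-. Dpys differed from the genes above in its start: 38.7 and 48.6 FPKM in WT mESC, with 7.85 and 4.37 in mESC labelled EED-/-. It ended at 0.112 to 0.228 FPKM in WT AntNPC, against 0.607 to 0.878 in AntNPC labelled EED-/-, with 3.27 ± 0.28 (SE; adjusted p = 7.85e-05). On the log2(FPKM + 1) scale the line labelled EED-/- differed from WT by -2.69 in mESC and 0.58 in AntNPC. That scale understates the AntNPC difference, at levels under 1 FPKM. Gli1, a transcription factor and target of Hedgehog signalling, also started low, at 14.1 and 24.6 FPKM in WT mESC and 3.12 and 4.11 in mESC labelled EED-/-, and ended at 0.223 to 0.383 FPKM in WT AntNPC, against 1.59 to 1.86 in AntNPC labelled EED-/-, with 3.15 ± 0.28 (SE; adjusted p = 0.000102). It passed with library weights.

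**Figure D3:**
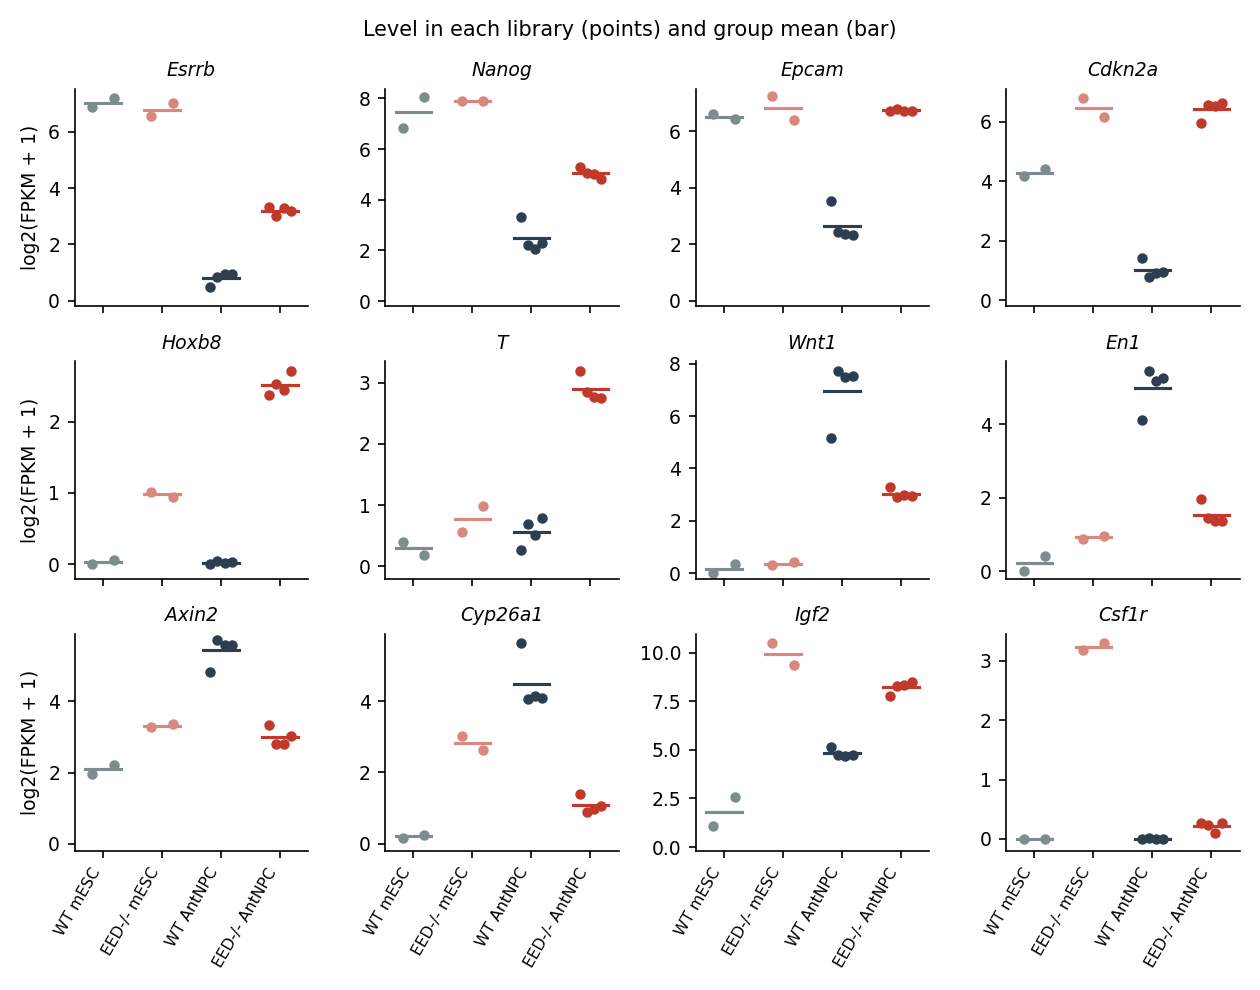
Level in log2(FPKM + 1) in each of the 12 libraries for 12 genes of the text, 1 panel per gene, with 1 point per library and a bar at the mean of each group. Esrrb and Epcam stay higher in AntNPC labelled EED-/- than in WT AntNPC, and Wnt1 and Axin2 reach lower levels there.

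Of 21 epithelial junction genes tested, 8 had a higher and 3 a lower interaction, with a median of 0.73. The list as a whole fell in both lines, by median changes of -1.08 in WT and -0.74 in the line labelled EED-/-. The 3 lower ones were Cldn23 and the keratins Krt8 and Krt18. The higher count was 5 without replicate 2 of mESC labelled EED-/- and without any 1 of the numbered AntNPC libraries of either genotype. With library weights 1 of the 8 passed.

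That gene was Epcam, an epithelial adhesion molecule also abundant in mESC. It was at 96.8 and 85.4 FPKM in WT mESC, with 151 and 83.7 in mESC labelled EED-/-. AntNPC levels of Epcam were 10.4, 4.37, 4.16 and 3.98 FPKM in WT AntNPC, against 105, 110, 103 and 105 in AntNPC labelled EED-/-. The level in AntNPC labelled EED-/- lay within the range of the mESC libraries, while WT AntNPC had lost most of it, and the interaction was 3.78 ± 0.46 (SE; adjusted p = 0.000416). Cdh1, which encodes E-cadherin, was at 99.1 and 61 FPKM in WT mESC, with 169 and 201 in mESC labelled EED-/- and then at 14.5, 4.1, 3.83 and 4.59 FPKM in WT AntNPC, against 107, 105, 110 and 112 in AntNPC labelled EED-/-, with 2.78 ± 0.57 (SE; adjusted p = 0.00797). Cldn6, a tight junction claudin, was at 21.4 and 35 FPKM in WT mESC, with 208 and 92.2 in mESC labelled EED-/-. It was at 2.14 to 4.23 FPKM in WT AntNPC, against 86.6 to 102 in AntNPC labelled EED-/-, with 2.37 ± 0.44 (SE; adjusted p = 0.00482). Esrp1, a splicing regulator of epithelial cells, was at 7.95 and 6.89 FPKM in WT mESC, with 21 and 21.1 in mESC labelled EED-/- and at 0.966 to 3.13 FPKM in WT AntNPC, against 29.5 to 33.1 in AntNPC labelled EED-/-, with 2.34 ± 0.39 (SE; adjusted p = 0.00267). Grhl2, a transcription factor that maintains epithelial junctions, was at 0.384 to 1.05 FPKM in WT AntNPC, against 4.85 to 7.49 in AntNPC labelled EED-/-, with 1.60 ± 0.32 (SE; adjusted p = 0.00679). In each of these 5 genes every AntNPC library labelled EED-/- exceeded every WT one. They were picked among called genes, and 18.3% of all genes passed as higher in AntNPC labelled EED-/-. This separation is therefore no further evidence.

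Cdkn2a, the gene of p16 and p19ARF, which restrain the cell cycle, and a textbook Polycomb target, followed the same course. It was at 17 and 20.1 FPKM in WT mESC, with 110 and 69.7 in mESC labelled EED-/-. AntNPC levels of Cdkn2a were 1.67, 0.734, 0.897 and 0.914 FPKM in WT AntNPC, against 60.9, 93.7, 90.3 and 97.7 in AntNPC labelled EED-/-. It fell by 3.27 on the log2 scale in WT and changed by -0.06 in the line labelled EED-/-. The interaction was 3.21 ± 0.36 (SE; adjusted p = 0.000272) and passed with library weights. Gadd45b, a growth arrest and stress gene, was at 51.2 and 15 FPKM in WT mESC, with 37.6 and 27.5 in mESC labelled EED-/- and at 0.552, 0.756, 0.795 and 0.525 FPKM in WT AntNPC, against 9.65, 26.6, 24.4 and 28.3 in AntNPC labelled EED-/-, with 3.51 ± 0.67 (SE; adjusted p = 0.00535). Both were in a list of 12 cell cycle inhibitors in which 2 were higher and 1, Cdkn1c, lower, or 3 lower without replicate 1 of WT mESC. Stmn2, a tubulin-binding protein usually counted as a neuronal marker, was at 127 and 303 FPKM in WT mESC, with 88.2 and 67 in mESC labelled EED-/-. It was at 24.2, 19.6, 21.9 and 21.7 FPKM in WT AntNPC, against 52.2, 78, 81 and 76.3 in AntNPC labelled EED-/-, with 3.0 ± 0.42 (SE; adjusted p = 0.00109), and passed with library weights. Its level was highest in WT mESC. The neuron markers Dcx and Neurod1 were under 1 FPKM in every library labelled EED-/-.

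Hoxb8 and T are examples of the 79 higher genes that rose in the line labelled EED-/- alone. Of these 79, 65 passed under all 3 scales and 51 without each library in turn, and 0 passed with library weights. Hoxb8, a body-axis homeobox gene, was at 0 and 0.0419 FPKM in WT mESC, with 1.01 and 0.927 in mESC labelled EED-/-. AntNPC levels of Hoxb8 were 0, 0.034, 0.00794 and 0.0229 FPKM in WT AntNPC, against 4.19, 4.76, 4.43 and 5.54 in AntNPC labelled EED-/-. The interaction was 1.54 ± 0.17 (SE; adjusted p = 0.000293). T (Brachyury), the T-box factor of primitive streak and tailbud, was at 0.32 and 0.138 FPKM in WT mESC, with 0.471 and 0.973 in mESC labelled EED-/-. AntNPC levels of T were 0.204, 0.616, 0.421 and 0.724 FPKM in WT AntNPC, against 8.19, 6.23, 5.8 and 5.77 in AntNPC labelled EED-/-, with 1.86 ± 0.28 (SE; adjusted p = 0.00171). In both genes the 4 AntNPC libraries labelled EED-/- were above all 8 others. Both were picked among genes called for a rise there, so this order is no further evidence.

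Among 23 genes of primitive streak and mesoderm 6 were higher and 3 lower, and among 18 of neural crest and surface ectoderm 6 were higher and 2 lower (median 0.54). The lower counts are near the 11.3% over all genes, while 3.98% of all genes were higher. Foxc1, a mesodermal forkhead factor, was at 0.0937 to 0.115 FPKM in WT AntNPC, against 2.44 to 3.14 in AntNPC labelled EED-/-, with 1.22 ± 0.17 (SE; adjusted p = 0.000835). Tal1, a factor of blood precursors, was at 0.0359 to 0.129 FPKM in WT AntNPC, against 2.44 to 3.01 in AntNPC labelled EED-/-, with 1.68 ± 0.19 (SE; adjusted p = 0.000261). Isl1, a LIM-homeobox factor of heart and motor neuron precursors, was at 0.0855 to 0.185 FPKM in WT AntNPC, against 3.19 to 5.07 in AntNPC labelled EED-/-, with 1.73 ± 0.27 (SE; adjusted p = 0.00202). All 3 were under 1 FPKM in every mESC library. Tfap2a, a factor of surface ectoderm and neural crest, was at 0.781 and 0.7 FPKM in WT mESC, with 3.87 and 2.76 in mESC labelled EED-/- and at 0.261 to 0.872 FPKM in WT AntNPC, against 9.05 to 13.6 in AntNPC labelled EED-/-, with 1.62 ± 0.31 (SE; adjusted p = 0.00503). Dlx5 and Dlx6, neighbouring homeobox genes of placode and crest, reached 5.17 to 8.64 and 5.56 to 12.3 FPKM in AntNPC labelled EED-/- against 0.126 to 0.387 and 0 to 0.381 in WT AntNPC, with interactions of 2.04 ± 0.26 (SE; adjusted p = 0.00063) and 1.98 ± 0.37 (SE; adjusted p = 0.00504).

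Zic1 and Vax1, factors of dorsal and ventral forebrain, were among the neural regulators with levels above WT in AntNPC labelled EED-/-. Zic1 was at 0.166, 1.26, 1.61 and 1.81 FPKM in WT AntNPC, against 15.1, 13.4, 14 and 14.7 in AntNPC labelled EED-/-, with 2.36 ± 0.46 (SE; adjusted p = 0.00653), and Vax1 at 0 to 0.0912 FPKM in WT AntNPC, against 1.36 to 1.88 in AntNPC labelled EED-/-, with 1.0 ± 0.16 (SE; adjusted p = 0.00246). Dlx6 and Zic1 lost their calls with a pseudocount of 0.1. Gpc3, a cell surface proteoglycan, differed from Zic1 and Vax1 in being well expressed in all groups. It was at 57.2 and 48.3 FPKM in WT mESC, with 45.3 and 48 in mESC labelled EED-/-. It was at 51.3, 40.8, 43.6 and 42.8 FPKM in WT AntNPC, against 116, 168, 155 and 156 in AntNPC labelled EED-/- after differentiation, with 1.88 ± 0.24 (SE; adjusted p = 0.000634). Summed markers of some other cell types were also higher in AntNPC labelled EED-/- than in WT AntNPC. The 5 mesoderm markers summed to 9.26 to 11.3 FPKM in AntNPC labelled EED-/- and to 0.627 to 1.47 in WT AntNPC, yet Mixl1, Mesp1 and Tbx6 were under 1 FPKM in all of them. The 4 neural crest markers summed to 13.8 to 19.3 against 1.44 to 2.73, and the 5 fibroblast markers to 26.7 to 86.0 against 12.8 to 16.1. In mESC labelled EED-/- the neural crest sum was 13.3 to 16.7 FPKM and the fibroblast sum 33.4 to 35.6. Both overlap the sums in AntNPC labelled EED-/-, so neither clearly rose on differentiation. The part of such cells in these results was not tested.

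The Hox genes, which pattern the body axis from head to tail and are classic PRC2 targets, were split by paralog group. The interaction was higher at 7 of the 27 tested and lower at 3. The division by paralog group was chosen after the values had been seen. No mean in WT exceeded 0.74 FPKM in groups 1 to 8 or 3.12 in groups 9 to 13. In mESC labelled EED-/- 13 of 14 and 12 of 13 of these genes were higher than in WT, and in AntNPC all 14 and all 13. In the interaction all 14 genes of groups 1 to 8 had an interaction above 0 and 7 of them passed, with a median of 0.90. Of the 13 genes of groups 9 to 13, 6 were above 0, none passed as higher and 3 passed as lower, with a median of -0.11. After quantile normalization the medians were 0.87 and 0.05. Hoxc13 then passed as higher (1.35, limma adjusted p = 0.0195) and Hoxa10 as lower, while Hoxb13 and Hoxc10 lost their lower calls. On that scale the calls were thus not cleanly split by paralog group. Without replicate 2 of WT mESC 11 Hox genes were higher.

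Hoxb2 was at 0.0171 and 0.0177 FPKM in WT mESC, with 0.977 and 0.534 in mESC labelled EED-/- and at 0, 0.0433, 0.027 and 0 FPKM in WT AntNPC, against 3.43, 4.72, 4.11 and 3.96 in AntNPC labelled EED-/-, with 1.53 ± 0.20 (SE; adjusted p = 0.000625). Hoxb7 was at 0.0669 and 0.0694 FPKM in WT mESC, with 1.8 and 2.14 in mESC labelled EED-/-. It was at 0.0853, 0.0379, 0.0177 and 0.0197 FPKM in WT AntNPC, against 5.43, 9.27, 9.21 and 9.57 in AntNPC labelled EED-/-, with 1.67 ± 0.28 (SE; adjusted p = 0.0027). Hoxc8 had an interaction of 1.14 ± 0.18 (SE; adjusted p = 0.00187). In each of these the line labelled EED-/- already held more RNA than WT in mESC and rose further. The 3 lower genes showed the opposite course. Hoxa11 was at 0 and 0.0402 FPKM in WT mESC, with 1.43 and 2.14 in mESC labelled EED-/- and at 0, 0.0545, 0 and 0 FPKM in WT AntNPC, against 0.217, 0.358, 0.487 and 0.356 in AntNPC labelled EED-/-, with -1.02 ± 0.17 (SE; adjusted p = 0.00305). Hoxb13 was at 4.87 and 2.81 FPKM in mESC labelled EED-/- and at 0.466, 1.11, 1.06 and 1.14 in AntNPC, with -1.13 ± 0.27 (SE; adjusted p = 0.017), and Hoxc10 at 3.15 and 3.18 and 0.626, 0.884, 1.36 and 1.48, with -0.90 ± 0.23 (SE; adjusted p = 0.0208). These last calls were lost after quantile normalization. No Hox gene passed with library weights.

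**Figure D4:**
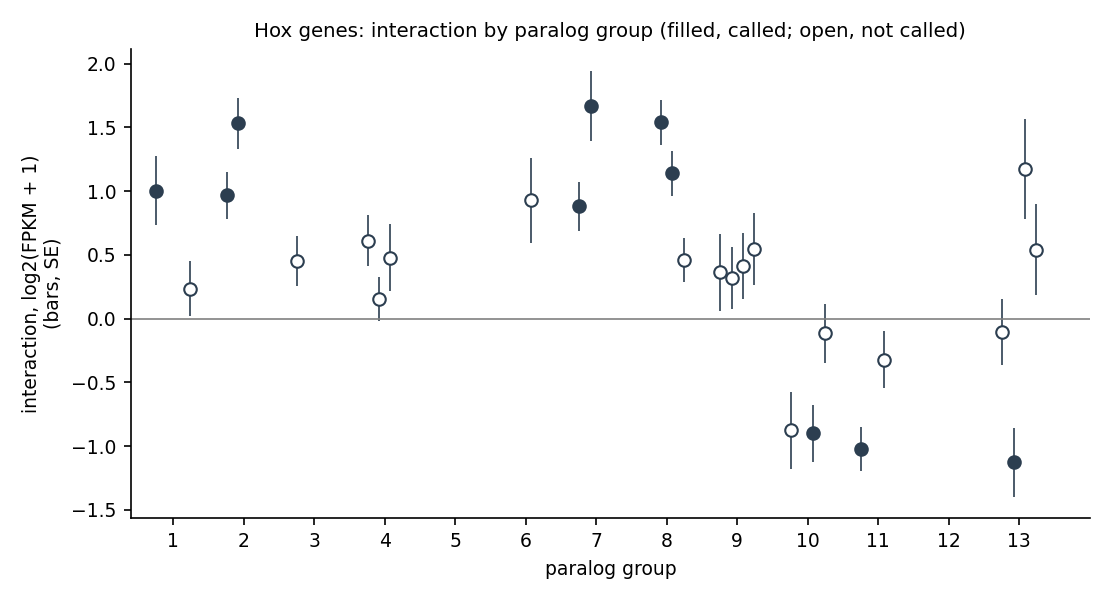
Interaction of the 27 tested Hox genes on the log2(FPKM + 1) scale with its standard error, by paralog group, with filled points for genes that passed and open points for those that did not. All 14 genes of groups 1 to 8 lie above 0, and Hoxa11, Hoxb13 and Hoxc10 of the later groups pass below 0.

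Regulators of anterior neural fate rose less in the line labelled EED-/-, or did not rise. Of 31 anterior neural regulators 14 were lower and 1, Vax1, higher, with a median of -1.21. Of 17 genes of the midbrain-hindbrain boundary 8 were lower and 2 higher (median -1.05), and of 25 pan-neural progenitor genes 8 were lower and 1 higher (median -1.0). The median change of the anterior neural list was 2.78 in WT and 1.03 in the line labelled EED-/-. Without replicate 1 of WT AntNPC the pan-neural count was 13. With library weights 3, 3 and 2 of these lower genes passed.

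En1, a homeobox gene of the midbrain-hindbrain boundary, was at 0.0133 and 0.326 FPKM in WT mESC, with 0.83 and 0.961 in mESC labelled EED-/-. AntNPC levels of En1 were 16.4, 42.5, 34.9 and 37.1 FPKM in WT AntNPC, against 2.93, 1.74, 1.59 and 1.58 in AntNPC labelled EED-/-. The groups did not overlap in AntNPC, WT rose by 4.78 and the line labelled EED-/- changed by 0.62, short of the threshold. The interaction was -4.16 ± 0.48 (SE; adjusted p = 0.0003) and passed with library weights. Pax2, a paired-box gene of the same territory, was at 0.0305 and 0.0618 FPKM in WT mESC, with 0.226 and 0.447 in mESC labelled EED-/- and at 27.3, 41.3, 36.9 and 36.1 FPKM in WT AntNPC, against 4.02, 0.97, 1.14 and 1.42 in AntNPC labelled EED-/-, with -4.10 ± 0.47 (SE; adjusted p = 0.000307). Lmx1b and Lmx1a are LIM-homeobox genes of the midbrain floor and isthmus. Lmx1b was at 0.898 and 0.296 FPKM in WT mESC, with 1.6 and 2.66 in mESC labelled EED-/-. It was at 25.3 to 32.1 FPKM in WT AntNPC, against 6.46 to 8.36 in AntNPC labelled EED-/-, with -2.90 ± 0.30 (SE; adjusted p = 0.000198). Lmx1a was at 0.0992 and 0.119 FPKM in WT mESC, with 0.964 and 1.31 in mESC labelled EED-/- and at 6.96 to 11.6 FPKM in WT AntNPC, against 0.335 to 0.524 in AntNPC labelled EED-/-, with -3.91 ± 0.28 (SE; adjusted p = 3.28e-05). It rose in WT and fell in the line labelled EED-/-, and both LIM genes passed with library weights.

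Among forebrain and eye field genes, Fezf1, Rax, Otx2 and Otx1 were also lower. Fezf1, a forebrain zinc finger factor, was at 23.2, 20.2, 21.5 and 21.1 FPKM in WT AntNPC, against 3.08, 2.29, 1.93 and 1.76 in AntNPC labelled EED-/-, with -2.97 ± 0.25 (SE; adjusted p = 7.85e-05). Rax, the retina and anterior neural fold homeobox gene, was at 3.61, 5.7, 5.47 and 5.51 FPKM in WT AntNPC, against 0.223, 0.277, 0.224 and 0.223 in AntNPC labelled EED-/-, with -2.41 ± 0.24 (SE; adjusted p = 0.000159). Rax stayed under 1 FPKM in every library labelled EED-/-, and both genes passed with library weights. Otx2, which defines forebrain and midbrain, was at 7.11 and 14.3 FPKM in WT mESC, with 8 and 13.1 in mESC labelled EED-/-. AntNPC levels of Otx2 were 208, 141, 134 and 144 FPKM in WT AntNPC, against 37.6, 19.5, 19.7 and 17.6 in AntNPC labelled EED-/-, with an interaction of -2.74 ± 0.49 (SE; adjusted p = 0.00389). Otx1 was at 6.27 to 6.62 FPKM in WT AntNPC, against 2.48 to 3.02 in AntNPC labelled EED-/-, with -2.18 ± 0.23 (SE; adjusted p = 0.000194).

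Of the 5 genes that the study links to poised enhancers, Lhx5, Wnt8b and Lmx1b had a lower interaction and Six3 and Sox1 did not pass. These genes were known from the study and their directions are no independent evidence. Lhx5, a LIM-homeobox gene of the forebrain, was at 0.153 and 0.236 FPKM in WT mESC, with 0.897 and 0.63 in mESC labelled EED-/-. AntNPC levels of Lhx5 were 19.7, 4.75, 6.03 and 5.17 FPKM in WT AntNPC, against 1.4, 0.593, 0.71 and 0.512 in AntNPC labelled EED-/-, with -2.82 ± 0.62 (SE; adjusted p = 0.011). Wnt8b, a forebrain WNT ligand, was at 8.72, 11.4, 10.8 and 11 FPKM in WT AntNPC, against 0.731, 0.128, 0.2 and 0.152 in AntNPC labelled EED-/-, and its interaction of -3.21 ± 0.27 (SE; adjusted p = 6.57e-05) passed with library weights. Six3, a forebrain and eye homeobox gene, was at 0 and 0.0115 FPKM in WT mESC, with 0.709 and 0.861 in mESC labelled EED-/-. AntNPC levels of Six3 were 25.7, 5.21, 5.31 and 5.09 FPKM in WT AntNPC, against 12.8, 14.1, 12.9 and 13.8 in AntNPC labelled EED-/-. WT replicate 1 was above and the other 3 WT libraries below all those labelled EED-/-. The interaction was -0.14 ± 0.70 (SE; adjusted p = 0.939), with a 95% interval of -1.69 to 1.41. It was 0.14 after quantile normalization, 0.37 with library weights and 0.36 (adjusted p = 0.0216) in the numbered libraries alone. Sox1, the earliest pan-neural SOX factor, was at 0.934 and 0.442 FPKM in WT mESC, with 0.284 and 0.445 in mESC labelled EED-/-. AntNPC libraries held it at 16.3, 15.6, 13.4 and 14.4 FPKM in WT AntNPC, against 15.2, 11.6, 10.7 and 11.4 in AntNPC labelled EED-/-. Its interaction of 0.02 ± 0.27 (SE; adjusted p = 0.983) had an interval of -0.59 to 0.62, and was 0.49 after quantile normalization. The interval rests on the spread shared by all groups, while the mESC libraries varied more. It therefore cannot exclude a difference of 1 log2 unit.

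Other neural progenitor genes fell between. Sox3, a partner of Sox1, was at 0.86 and 0.846 FPKM in WT mESC, with 1.79 and 2.54 in mESC labelled EED-/- and at 29.4 to 32.5 FPKM in WT AntNPC, against 8.16 to 13 in AntNPC labelled EED-/-, with -2.35 ± 0.28 (SE; adjusted p = 0.000351). Sox9, a SOX factor of neural stem cells and crest, was at 17.4 to 26.1 FPKM in WT AntNPC, against 4.06 to 5.03 in AntNPC labelled EED-/-, with -2.68 ± 0.27 (SE; adjusted p = 0.000164). Prtg, a cell surface receptor of the early neural tube, was at 0.525 and 0.482 FPKM in WT mESC, with 2.49 and 5.83 in mESC labelled EED-/- and at 145, 140, 120 and 127 FPKM in WT AntNPC, against 54.4, 50.2, 46.4 and 50.2 in AntNPC labelled EED-/-, with -3.08 ± 0.31 (SE; adjusted p = 0.000178). Rgma, a repulsive guidance molecule of neural folds, was at 0.645 and 0.838 FPKM in WT mESC, with 2.41 and 2.85 in mESC labelled EED-/-. It was at 90.9, 72.4, 68.4 and 67.1 FPKM in WT AntNPC, against 13.9, 12.7, 11.7 and 12.5 in AntNPC labelled EED-/-, with -3.52 ± 0.23 (SE; adjusted p = 2.44e-05). Both passed with library weights, and both rose in each line, though less in the line labelled EED-/-. Nes, the intermediate filament of neural progenitors, reached its low interaction by another route. It was at 0.834 and 1.32 FPKM in WT mESC, with 12.4 and 18.8 in mESC labelled EED-/-. AntNPC levels of Nes were 14.9, 21.6, 23.4 and 22.8 FPKM in WT AntNPC, against 23.2, 19.3, 21.8 and 21.8 in AntNPC labelled EED-/-, which overlap, so that its interaction of -2.91 ± 0.31 (SE; adjusted p = 0.00021) came from the higher level in mESC labelled EED-/-. Nes passed with library weights.

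WNT ligands and feedback genes had the lowest median of the signalling lists examined. Of 12 WNT ligands tested 9 were lower and none higher (median -2.90), and of 18 WNT target and feedback genes 6 were lower and 1, T, higher (median -0.88). The ligand list changed by a median of 2.05 in WT and -0.37 in the line labelled EED-/-. With library weights 3 ligands and 2 targets passed. Both AntNPC groups had been treated with the WNT inhibitor.

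Wnt1 is the ligand of the midbrain-hindbrain boundary whose promoter is shown above. It was at 0 and 0.281 FPKM in WT mESC, with 0.245 and 0.338 in mESC labelled EED-/-. AntNPC levels of Wnt1 were 34.6, 208, 180 and 184 FPKM in WT AntNPC, against 8.81, 6.48, 7.03 and 6.69 in AntNPC labelled EED-/-. WT replicate 1 held far less than its 3 group-mates and still more than any library labelled EED-/-. The interaction was -4.12 ± 0.81 (SE; adjusted p = 0.00655). Axin2, the negative feedback gene used as a readout of WNT activity, was at 2.88 and 3.67 FPKM in WT mESC, with 8.67 and 9.33 in mESC labelled EED-/-. AntNPC levels of Axin2 were 27.6, 51.6, 47 and 47.4 FPKM in WT AntNPC, against 9.09, 5.96, 6.03 and 7.13 in AntNPC labelled EED-/-, with -3.67 ± 0.36 (SE; adjusted p = 0.000143). Axin2 rose by 3.34 in WT and changed by -0.33 in the line labelled EED-/-, and it passed with library weights. Apcdd1, a membrane-bound WNT inhibitor, was at 1.34 and 0.678 FPKM in WT mESC, with 1.82 and 4.76 in mESC labelled EED-/- and at 25 to 28.7 FPKM in WT AntNPC, against 1.92 to 2.75 in AntNPC labelled EED-/-, with -4.11 ± 0.37 (SE; adjusted p = 0.000102). It too passed with library weights. Sfrp1, a secreted WNT antagonist, differed less, with -1.32 ± 0.18 (SE; adjusted p = 0.000782).

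The other ligands followed 2 courses. Wnt5b was at 0.0643 and 0.572 FPKM in WT mESC, with 2.34 and 2.4 in mESC labelled EED-/-. It was at 12.1 to 15.4 FPKM in WT AntNPC, against 3.96 to 4.13 in AntNPC labelled EED-/-, with -2.95 ± 0.26 (SE; adjusted p = 8.74e-05), which passed with library weights, and rose in both lines. Wnt4 and Wnt7a started high in the line labelled EED-/- and fell there. Wnt4 was at 0.237 and 0.179 FPKM in WT mESC, with 13.2 and 8.4 in mESC labelled EED-/- and at 0.983 to 1.53 FPKM in WT AntNPC, against 1.38 to 2.37 in AntNPC labelled EED-/-, with -2.94 ± 0.28 (SE; adjusted p = 0.000143). Wnt7a was at 0.05 and 0.043 FPKM in WT mESC and 4.76 and 3.08 in mESC labelled EED-/-, and at 0.0106 to 0.0363 FPKM in WT AntNPC, against 0.222 to 0.415 in AntNPC labelled EED-/-, with -1.85 ± 0.19 (SE; adjusted p = 0.000199). Wnt7b did both, at 2.9 and 4.38 FPKM in WT mESC, with 29.5 and 13.7 in mESC labelled EED-/- and then at 7.48, 19.9, 20.4 and 20.5 FPKM in WT AntNPC, against 1.06, 0.947, 0.816 and 1.03 in AntNPC labelled EED-/-. It rose by 1.88 in WT and fell by 3.43 on the log2 scale in the line labelled EED-/-. Its interaction was -5.31 ± 0.56 (SE; adjusted p = 0.000199) and passed with library weights.

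Fgfr2, a receptor for fibroblast growth factors, had one of the lowest interactions. It was at 1.29 and 1.11 FPKM in WT mESC, with 14.9 and 18.2 in mESC labelled EED-/-. AntNPC levels of Fgfr2 were 127, 87.4, 82.1 and 84.4 FPKM in WT AntNPC, against 27.2, 32.8, 28.6 and 33.7 in AntNPC labelled EED-/-. It was higher in mESC labelled EED-/- and lower in AntNPC, with -4.58 ± 0.27 (SE; adjusted p = 1.61e-05), and passed with library weights. Beside shares of 3.98% higher and 11.3% lower over all genes, of 22 FGF pathway genes 3 were higher and 2, Fgfr1 and Fgfr2, lower. Without replicate 1 of WT mESC 4 FGF genes were lower. Among 12 Hedgehog genes 2 were higher, or 4 without replicate 2 of WT mESC, and 4 lower. Among 23 BMP and TGF-beta genes 1 was higher and 2 lower. Leaving out 1 library took these BMP counts from 0 to 7 higher (7 without replicate 1 of WT mESC) and from 2 to 5 lower (5 without replicate 2 of WT mESC).

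Genes switched on in mESC labelled EED-/- made up the next class. They belong to the 287 genes that fell in the line labelled EED-/- alone, or rose in WT beside that fall. Csf1r, the receptor of macrophage colony-stimulating factor, was at 0 and 0 FPKM in WT mESC, with 8.08 and 8.78 in mESC labelled EED-/-. AntNPC levels of Csf1r were 0, 0.0113, 0.00527 and 0 FPKM in WT AntNPC, against 0.204, 0.176, 0.0783 and 0.2 in AntNPC labelled EED-/-. Its interaction of -3.02 ± 0.14 (SE; adjusted p = 3.54e-06) had the smallest p of the genes described, and it passed with library weights. Csf1, the ligand of this receptor, was at 0.0606 and 0.0715 FPKM in WT mESC, with 17.1 and 24.3 in mESC labelled EED-/- and at 1.92, 3.42, 3.22 and 2.86 FPKM in WT AntNPC, against 4.33, 5.78, 5.52 and 6.17 in AntNPC labelled EED-/-, with -3.58 ± 0.31 (SE; adjusted p = 8.54e-05). The ligand rose in WT as well, by 1.84, and passed with library weights.

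Several trophoblast genes followed this course, while Krt7 and Rhox6 fell in WT too. Of 16 trophoblast genes tested 8 were lower and none higher (median -1.50; 1 higher at an unadjusted p under 0.05, and 4 called higher without replicate 2 of WT mESC), and their median difference between the lines was 4.14 in mESC and 2.19 in AntNPC. Plac1, a placental gene on the X chromosome, was at 0 and 0.0252 FPKM in WT mESC, with 19.6 and 16.5 in mESC labelled EED-/- and at 0.0433, 0.123, 0.0915 and 0.0912 FPKM in WT AntNPC, against 1.23, 1.38, 1.78 and 1.9 in AntNPC labelled EED-/-, with -3.0 ± 0.20 (SE; adjusted p = 2.95e-05), and was the only one of the 8 that passed with library weights. Hand1, a basic helix-loop-helix factor of trophoblast giant cells and heart, was at 0.346 and 0.316 FPKM in WT mESC, with 169 and 75.2 in mESC labelled EED-/-. AntNPC levels of Hand1 were 0.0389, 0.121, 0.0841 and 0.0804 FPKM in WT AntNPC, against 4.9, 12.9, 14.3 and 14.1 in AntNPC labelled EED-/-, with -2.98 ± 0.56 (SE; adjusted p = 0.00487). Krt8 and Krt18, paired keratins of simple epithelium, fell from 867 and 371 FPKM and 1198 and 381 in mESC labelled EED-/- to 121 to 181 and 124 to 211 in AntNPC, with -2.42 ± 0.43 (SE; adjusted p = 0.0039) and -2.27 ± 0.52 (SE; adjusted p = 0.0135). WT AntNPC held them at 12.4 to 14.8 and 20.6 to 23.8 FPKM. The 5 trophoblast markers summed to 97.5 to 194 FPKM in mESC labelled EED-/- and 10.7 to 22.1 in AntNPC, against at most 0.930 in any WT library, and Cdx2 and Elf5 were under 1 FPKM in AntNPC labelled EED-/-. Their part in the result was not tested.

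Endoderm genes were split, with 9 of 24 lower and 4 higher. Sox17, an endoderm and endothelial SOX factor, was at 0.298 and 0.0579 FPKM in WT mESC, with 12 and 7.07 in mESC labelled EED-/- and at 0 to 0.238 FPKM in WT AntNPC, against 0.891 to 1.38 in AntNPC labelled EED-/-, with -2.16 ± 0.28 (SE; adjusted p = 0.000619). The 4 higher ones include Cldn6 and Epcam, which are also on the epithelial list. The 5 endoderm markers summed to 14.4 to 23.4 FPKM in mESC labelled EED-/- and to 8.24 to 30.3 in AntNPC labelled EED-/-, against at most 1.16 in WT, and their part in the result was not tested. Krt14, a basal epidermal keratin with the CpG-poor promoter shown above, was at 0.0655 and 0.109 FPKM in WT mESC, with 8.06 and 5.11 in mESC labelled EED-/- and at 0 to 0.0224 FPKM in WT AntNPC, against 0.0448 to 0.105 in AntNPC labelled EED-/-, with -2.67 ± 0.20 (SE; adjusted p = 4.43e-05). Ccl17, a T cell chemokine also with few CG, was at 0 and 0 FPKM in WT mESC, with 8.66 and 10.3 in mESC labelled EED-/-. It was at 0 to 0.341 FPKM in WT AntNPC, against 0.326 to 0.533 in AntNPC labelled EED-/-, with -3.10 ± 0.20 (SE; adjusted p = 2.44e-05). Ly6a, the surface antigen Sca-1, was at 0.115 and 0.766 FPKM in WT mESC, with 62.5 and 20.8 in mESC labelled EED-/- and at 0.0491 to 0.093 FPKM in WT AntNPC, against 0.539 to 0.738 in AntNPC labelled EED-/-, with -4.09 ± 0.47 (SE; adjusted p = 0.0003). All 3 passed with library weights, and none reached 1 FPKM in AntNPC of either line.

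Rhox genes, an X-linked homeobox cluster of placenta and germ cells, fell in both lines and from a higher level in the line labelled EED-/-. Of 6 tested, 3 were lower and none higher. Rhox6 was at 1.71 and 5.1 FPKM in WT mESC, with 429 and 194 in mESC labelled EED-/-. AntNPC levels of Rhox6 were 0.114, 0.179, 0.261 and 0.239 FPKM in WT AntNPC, against 8.59, 7.51, 8.99 and 7.35 in AntNPC labelled EED-/-, with -3.23 ± 0.48 (SE; adjusted p = 0.00144). Rhox9 was at 2.8 and 8.38 FPKM in WT mESC, with 382 and 199 in mESC labelled EED-/- and at 0.0909 to 0.313 FPKM in WT AntNPC, against 6.12 to 8.57 in AntNPC labelled EED-/-, with -2.86 ± 0.48 (SE; adjusted p = 0.00292). Rhox10, at 1.73 and 5.68 FPKM in WT mESC, with 25.6 and 13.5 in mESC labelled EED-/- and listed at 0 in all WT AntNPC, passed narrowly with -1.54 ± 0.47 (SE; adjusted p = 0.0477), lost its call under rescaling and passed in 3 of the 12 fits without 1 library. With a pseudocount of 0.1 its interaction was 0.20, and the calls of Rhox6 and Rhox9 were lost. The interaction of a gene that ends near 0 in 1 line depends on that choice.

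Beside 11.3% lower and 3.98% higher over all genes, imprinted genes, expressed from 1 parental copy, were 6 lower and 2 higher of 26. Of these 4 and 1 passed after quantile normalization, and 6 were higher without replicate 2 of WT mESC. Igf2, the fetal growth factor, was at 1.11 and 4.88 FPKM in WT mESC, with 1452 and 653 in mESC labelled EED-/-. AntNPC levels of Igf2 were 34, 25.5, 24.5 and 25.5 FPKM in WT AntNPC, against 218, 314, 325 and 358 in AntNPC labelled EED-/-. WT rose by 3.0 and the line labelled EED-/- fell by 1.70 on the log2 scale, yet every library labelled EED-/- stayed above every WT one. The interaction was -4.70 ± 0.57 (SE; adjusted p = 0.000411). Cdkn1c, the cell cycle inhibitor p57, was at 11.9 and 6.91 FPKM in WT mESC, with 62.3 and 44.6 in mESC labelled EED-/-. It was at 33.3, 51.3, 47.6 and 45.9 FPKM in WT AntNPC, against 27.1, 27.6, 29.4 and 31.2 in AntNPC labelled EED-/-, with -3.01 ± 0.32 (SE; adjusted p = 0.000215). Both passed with library weights. Igf2 and Cdkn1c thus moved in opposite directions in the lines, as did the genes of the next group.

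In 69 genes WT rose and the line labelled EED-/- fell, and 68 of these were called without each library in turn. Cyp26a1, the enzyme that breaks down retinoic acid, had the lowest interaction of the genes described. It was at 0.125 and 0.194 FPKM in WT mESC, with 7.06 and 5.13 in mESC labelled EED-/-. AntNPC levels of Cyp26a1 were 48.1, 15.6, 16.7 and 15.9 FPKM in WT AntNPC, against 1.65, 0.851, 0.955 and 1.09 in AntNPC labelled EED-/-. WT rose by 4.26, the line labelled EED-/- fell by 1.73 on the log2 scale, and the interaction was -5.99 ± 0.56 (SE; adjusted p = 0.00012). Stra6, the membrane receptor for the retinol carrier, was at 0.363 and 0.182 FPKM in WT mESC, with 2.26 and 4.02 in mESC labelled EED-/- and at 7.14 to 7.93 FPKM in WT AntNPC, against 1.17 to 1.67 in AntNPC labelled EED-/-, with -3.48 ± 0.26 (SE; adjusted p = 5.22e-05). Crabp2, a retinoic acid carrier in the cell, rose in both lines, to 299 to 566 FPKM in WT AntNPC, against 106 to 196 in AntNPC labelled EED-/-, with -2.73 ± 0.43 (SE; adjusted p = 0.00192). Cyp26a1 and Stra6 passed with library weights. Of 14 retinoic acid genes these 3 were lower, and Cyp26b1 and Rara were higher. The higher count was 4 without replicate 1 of AntNPC labelled EED-/-, and 1 without WT mESC replicate 1 or any 1 numbered AntNPC library.

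Sept4, a septin, was at 0.766 and 1.81 FPKM in WT mESC, with 31.5 and 14.2 in mESC labelled EED-/-. AntNPC levels of Sept4 were 13, 16.8, 15.1 and 16.7 FPKM in WT AntNPC, against 3.12, 7.61, 6.78 and 7.73 in AntNPC labelled EED-/-, with -4.54 ± 0.52 (SE; adjusted p = 0.000294). Bmp1, a secreted metalloprotease that processes collagens and BMP antagonists, was at 1.08 and 0.453 FPKM in WT mESC, with 34.6 and 36.3 in mESC labelled EED-/-. It was at 5.41, 9.53, 9.24 and 9.2 FPKM in WT AntNPC, against 7.35, 9.66, 10.8 and 11.9 in AntNPC labelled EED-/-, which overlap, with -4.15 ± 0.36 (SE; adjusted p = 8.6e-05). Hs3st1, a heparan sulfate sulfotransferase, was at 0.116 and 0.12 FPKM in WT mESC, with 8.11 and 6.87 in mESC labelled EED-/- and at 0.4 to 0.627 FPKM in WT AntNPC, against 0.763 to 0.975 in AntNPC labelled EED-/-, with -2.62 ± 0.17 (SE; adjusted p = 2.44e-05). All 3 passed with library weights. For Bmp1 and Hs3st1 the interaction lay in the mESC, where the line labelled EED-/- was far above WT.

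The reverse course, a fall in WT and a rise in the line labelled EED-/-, was found at 13 genes, all of which passed under all 3 scales and without each library in turn. Prdm1, which encodes BLIMP1, a repressor needed for germ cells, was at 3.74 and 2.26 FPKM in WT mESC, with 0.902 and 1.48 in mESC labelled EED-/-. AntNPC levels of Prdm1 were 0.0413, 0.057, 0.0883 and 0.0681 FPKM in WT AntNPC, against 6.34, 3.8, 3.97 and 3.95 in AntNPC labelled EED-/-, and the order of the lines was the opposite in mESC and AntNPC. Its interaction was 3.21 ± 0.30 (SE; adjusted p = 0.000129) and passed with library weights. Calca, which encodes calcitonin and its related peptide, was at 44.1 and 44.8 FPKM in WT mESC, with 9.93 and 8.56 in mESC labelled EED-/-. It was at 13.2, 5.14, 6.2 and 6.48 FPKM in WT AntNPC, against 22.9, 25.5, 22.4 and 18.7 in AntNPC labelled EED-/-, with 3.64 ± 0.40 (SE; adjusted p = 0.000242).

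Of the PRC2 subunits, EED and the proteins that work with it, none of 11 passed by limma, and 0 reached an unadjusted p under 0.05. Eed itself had -0.49 ± 0.46 (SE; adjusted p = 0.573), with a 95% interval of -1.52 to 0.53. After either rescaling and with library weights 0 of the 11 passed as well, and without 1 library in turn at most 2 were higher and 1 lower. The sign of Eed changed with the libraries used, from -1.17 in those with no number to 0.42 in the numbered ones. Each of these subsets holds 1 library of each mESC group. At 15.3% called over all genes, 0 of 11 is no result about PRC2. Of 20 PRC1 subunits 1, Phc1, was higher and 5 were lower, or 3 without replicate 2 of mESC labelled EED-/-. The call of Phc1 was lost after quantile normalization (adjusted p = 0.0873) and passed in 5 of the 12 fits without 1 library, and with library weights 1 PRC1 gene passed. Phc2, a polyhomeotic subunit, was at 7.21 and 9.47 FPKM in WT mESC, with 39.4 and 31.7 in mESC labelled EED-/-. It was at 69.9 to 78.6 FPKM in WT AntNPC, against 48.9 to 53.1 in AntNPC labelled EED-/-, with -2.50 ± 0.20 (SE; adjusted p = 6.56e-05), and passed with library weights. Cbx2, a chromobox subunit that reads the PRC2 mark, was at 5.8 and 6.04 FPKM in WT mESC, with 14.1 and 19 in mESC labelled EED-/- and at 42.4 to 47.9 FPKM in WT AntNPC, against 33.4 to 38.1 in AntNPC labelled EED-/-, with -1.66 ± 0.20 (SE; adjusted p = 0.00039). For both the line labelled EED-/- started higher than WT and ended lower.

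Some lists held no call, where 15.3% of all genes were called, 3.98% higher and 11.3% lower. Of 20 proliferation genes none passed by limma and 1 reached an unadjusted p under 0.05, and of 20 glycolysis genes none passed and 2 reached it. After quantile normalization 0 of the former and 1 of the latter passed, and with library weights 0 of each. None of the 3 sex chromosome markers that can tell lines apart passed by limma, and 0 reached an unadjusted p under 0.05. Of 17 p53 targets 1, Bbc3, was higher and none lower, while 2 and 1 had an unadjusted p under 0.05, and without replicate 2 of WT mESC 4 were higher and 2 lower.

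The other lists had calls in both directions or few of them. With 3.98% higher and 11.3% lower over all genes, counts near those shares are no result about a list. Among 18 Notch and proneural genes 0 were higher and 5 lower, while 0 and 7 had an unadjusted p under 0.05. After quantile normalization 2 were lower, 3 were lower without any 1 of the numbered AntNPC libraries, and 6 were higher without replicate 2 of WT mESC. Of 13 genes of postmitotic neurons 2, Stmn2 and Isl1, were higher and 4 lower, and 2 were lower without WT AntNPC replicate 3, WT AntNPC replicate 4 or replicate 2 of AntNPC labelled EED-/-. Of 15 posterior neural and tailbud genes 1, T, was higher and 7 lower, or 4 without replicate 2 of mESC labelled EED-/-. Among 10 formative epiblast genes 2 were higher, Dnmt3l and Etv4, and 2 lower, Otx2 and Sox3. Etv4 lost its call after quantile normalization (adjusted p = 0.0674) and passed in 4 of the 12 fits without 1 library. Of 14 blood and endothelium genes 3 were higher and 2 lower, with 6 higher without replicate 1 of AntNPC labelled EED-/-. Of 21 fibroblast and smooth muscle genes 3 were lower, or 5 without replicate 2 of WT mESC. Among 26 germline genes 4 were higher and 3 lower, with 8 higher without replicate 2 of WT mESC and 6 lower without replicate 1 of mESC labelled EED-/-. Of 24 stress genes 5 were higher and 3 lower. The higher stress count was 3 without replicate 2 of mESC labelled EED-/- or any 1 numbered AntNPC library, and the lower one 10 without replicate 2 of WT mESC.

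**Figure D5:**
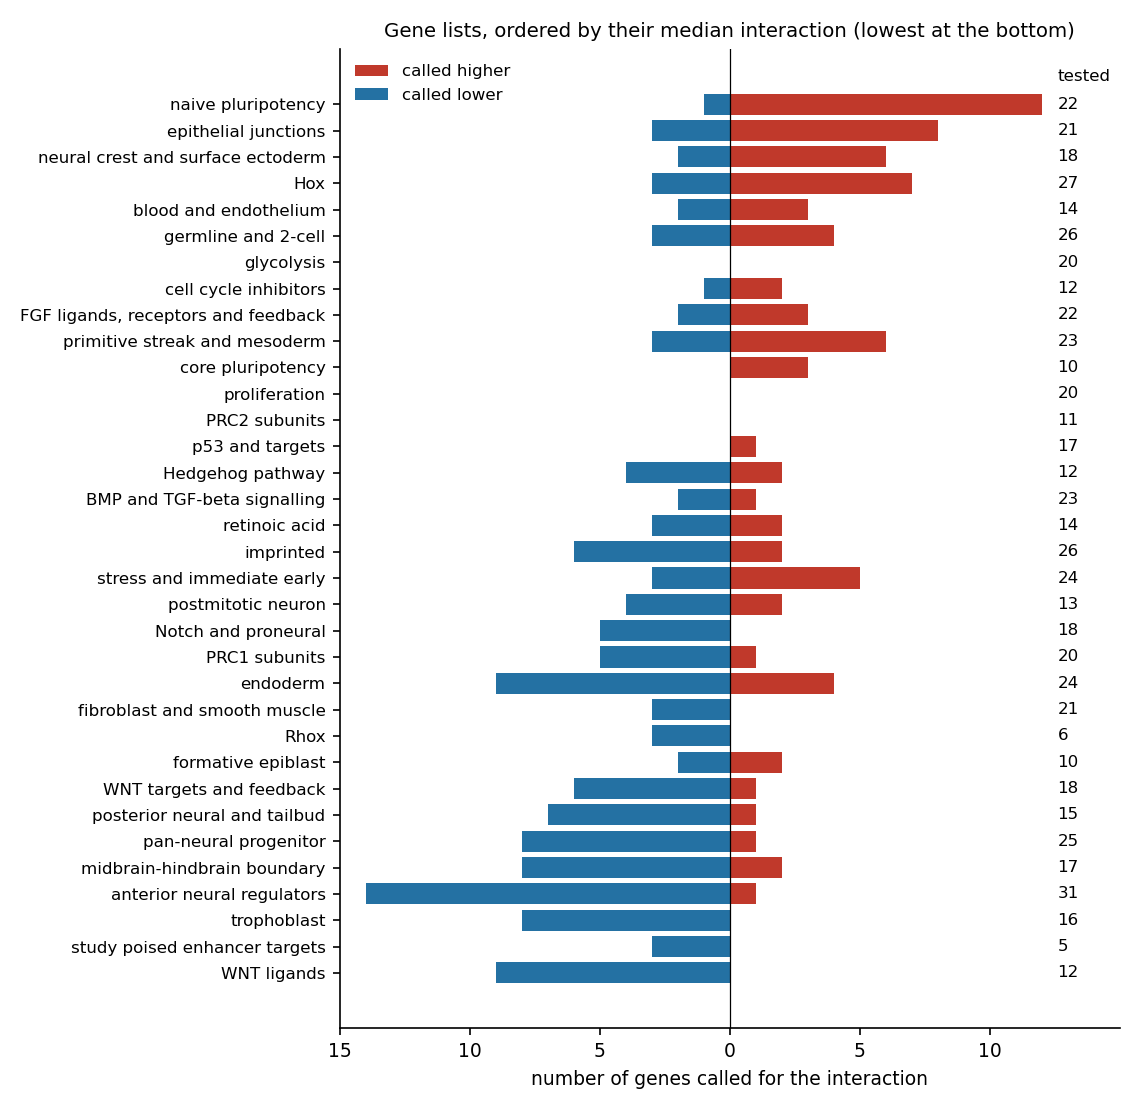
Number of genes per list with a higher and a lower interaction (bars, limma adjusted p under 0.05 over all genes) beside the number tested. Naive pluripotency has the most higher calls, 12 of 22, and anterior neural regulators the most lower calls, 14 of 31.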

How the data were processed

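RNA selected for poly(A) was sequenced in 12 libraries (TruSeq v2 kit, per the labels). The authors deposited 1 table of 21253 genes with a value per library. These are taken here as FPKM, although the header names no unit, because the submitters' processing notes list TopHat2 and Cufflinks with GRCm38 (mm10). The authors also used FastQC, SAMtools and, for libraries with a number in their title, DESeq2, per the submitters' processing notes, which give no version. Other deposited columns are the authors' means of FPKM by group, a mean read count per AntNPC group (a normalized signal) and a p-value of the authors' own comparison, and were not used. Of the columns of single libraries 0 were left out. The read depth cannot be had from FPKM, so counting error is not given, and an exact 0 can be a failed estimate.

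Tests used log2(FPKM + 1), a scale that understates changes of low genes. The 13678 genes with 1 FPKM or more in 2 or more libraries were fitted in limma 3.58.1 under R 4.3.3 (limma-trend). A single model held the 4 group means of all 12 libraries (residual degrees of freedom 8, prior 2.93). Tests were two-sided, p-values were adjusted over all genes tested (Benjamini-Hochberg), and the threshold was 0.05. "Rose", "fell", "higher" and "lower" in counts mean an adjusted p under it. Scripts were tested on simulated data. The library with no number in its title is replicate 1. Alternatives were another pseudocount (0.1 or 5), other filters, quantile normalization, scaling to a common median, library weights, a replicate block, leaving out each library, and a stricter threshold.

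The genes and lists were chosen with earlier results of these data known, the lists from textbook knowledge. Genes named in the text are the PRC2 subunits with Eed, and the study's 5 targets. To these were added the 15 highest and 15 lowest interactions among called genes with a group mean of at least 5 FPKM, the same sign in libraries with and without a number and no lone exact 0. The 4 genes of smallest adjusted p in each class of at least 20 genes, and up to 4 members per list and direction (all where 5 or fewer passed), complete them. Symbols of predicted and RNA genes were passed over, and some genes the rule takes are not reported here. Promoters came from the RefSeq table of GRCm38.p6, matched by symbol, by current gene name in GENCODE M21 (which matched 21149 of 21253 genes) or by synonym. Python 3.11.15, pandas 2.3.3, numpy 2.4.6, scipy 1.17.1 and matplotlib 3.10.9 were used.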

Additional observations from a re-analysis of the deposited data

Results flagged for a closer look

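In AntNPC, where groups hold 4 libraries, a library was taken to stand apart when its gap to the nearest group-mate made up more of the group's range than Dixon's 95% critical value, which chance gives in about 1 in 20 groups. Among the 90 genes given with values in each AntNPC group this occurred 22 times in WT, 17 of them in replicate 1, and 16 times in AntNPC labelled EED-/-, 15 of them in replicate 1, the library with no number in its title. In WT replicate 1 the ratio was 0.977 for Six3, 0.970 for Wnt7b, 0.959 for Esrp1, 0.944 for Cyp26a1 and 0.936 for Bmp1. It was 0.918 for Wnt1, 0.909 for Epcam, 0.908 for Pou5f1, 0.904 for Rax and 0.899 for Lmx1a. It was 0.875 for Igf2, 0.874 for Cdh1, 0.858 for Fgfr2, 0.852 for Sox9, 0.848 for Axin2, 0.844 for Lhx5 and 0.836 for Otx2.

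The other WT cases were Hoxa11 and Krt14 in replicate 2 and Hoxb13 and Hoxc10 in replicate 4, each with a ratio of 1 at values under 0.1 FPKM, and Krt8 in replicate 3 (0.832). In replicate 1 of AntNPC labelled EED-/- the ratio was 0.945 for Tal1, 0.930 for Hoxb7, 0.918 for Prdm1, 0.902 for Hand1 and 0.897 for Krt18. It was 0.888 for Hoxb13, 0.863 for Stmn2, 0.863 for Crabp2, 0.860 for Gadd45b, 0.855 for Wnt8b, 0.855 for En1, 0.851 for Otx2, 0.846 for Sept4, 0.845 for Sox3 and 0.833 for Cdkn2a. Rax stood apart in replicate 2 (0.986).

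The effect of the genotype differed between mESC and AntNPC by the test of the interaction itself at the 545 higher and 1541 lower genes of the report. Among the genes given with values, the difference between the lines passed in opposite directions in the 2 cell types at 23. Lower in mESC and higher in AntNPC labelled EED-/- were Calca (interaction 3.64), Dpys (3.27), Prdm1 (3.21), Gli1 (3.15) and Stmn2 (3.0). Higher in mESC and lower in AntNPC were Cyp26a1 (-5.99), Wnt7b (-5.31), Fgfr2 (-4.58), Sept4 (-4.54), Apcdd1 (-4.11), Lmx1a (-3.91), Axin2 (-3.67), Rgma (-3.52) and Stra6 (-3.48). With smaller values, Prtg (-3.08), Cdkn1c (-3.01), Wnt5b (-2.95), Lmx1b (-2.90), Crabp2 (-2.73), Sox9 (-2.68), Phc2 (-2.50), Sox3 (-2.35) and Otx1 (-2.18) showed the same order.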

How the results depend on the processing

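The interaction was called at 545 genes higher and 1541 lower. These counts became 253 and 732 with a mean of at least 5 FPKM, 241 and 712 at an adjusted p under 0.01, and 12 and 60 with library weights. After quantile normalization 841 were lower. Without each library in turn they ran from 376 to 1558 higher and from 1114 to 2733 lower, and the counts that moved most were 776 and 2414 without WT mESC replicate 1 and 1558 and 2733 without WT mESC replicate 2. A fit without the mESC library of the higher FPKM sum in each line, added after seeing the data, gave 1998 and 3718. It leaves 1 library in each mESC group, which is assumed to vary like the AntNPC libraries. So do the numbered libraries alone, with 3615 and 7071. Replicates 1 and 2 alone gave 0 and 0 with limma, with 1636 genes at an unadjusted p under 0.05. The cause of these moves was not tested. Apart from the replicate block by title number, given next, the other alternatives kept both counts within 1.5 times.

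With the replicate number of the titles as a block the counts were 275 and 776. The numbers do not pair the samples: deviations of same-numbered libraries correlated at -0.67 between the mESC groups and at 0.32 to 0.56 between the AntNPC groups. With 2 libraries per mESC group the first is a single value, and its cause was not tested. A block with the numbers of the mESC libraries labelled EED-/- exchanged, added after seeing the data, gave 460 and 1242 calls. A block for libraries with and without a number gave 576 and 1535.

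Of the 90 genes given with values 87 were called, 83 also under both other scales, 82 without each library in turn, 80 with the replicate block and 35 with library weights. Of the called ones 1 changed sign, Rhox10 (0.20 with a pseudocount of 0.1). At that pseudocount the calls of Dlx6, Zic1, Hoxb13, Hoxc10, Rhox6 and Rhox9 were lost, and at 5 those of Lhx5, Tbx3 and Jam2. Of the genes not called, Eed (0.42), Six3 (0.36) and Sox1 (-0.34) changed sign in the numbered libraries alone, Six3 after quantile normalization (0.14), and Six3 (0.37) and Sox1 (-0.04) with library weights. The depth behind each value is unknown, and the 2 libraries of each mESC group limit every interaction.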
